A study of Mus musculus with 30 samples.

Results

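Brown and beige fat cells were followed here through 10 genes: Ucp1, Cidea, Otop1, Ppargc1a, Dio2, Cox8b, Cox7a1, Elovl3, Prdm16 and Pank1. They were chosen by symbol, with earlier results of these data known. All 10 were found among the gene identifiers of a count table of 35120 genes. The study asked what the loss of β-catenin (Ctnnb1) from fat cells does to adipose tissue. Mice labelled Ctnnb1AdKO, called knockout below, were set against Ctnnb1fl/fl mice, called controls, which carry the floxed alleles without the deletion and were matched for sex and age. Collagenase digestion and centrifugation split white fat into floating adipocytes and pelleted stromal-vascular cells (SVC), which include preadipocytes, immune and endothelial cells. There were 6 male control, 5 male knockout, 6 female control and 6 female knockout adipocyte libraries, and 3 control and 4 knockout SVC libraries, all male. The labels give epididymal and posterior subcutaneous white fat as the tissue of every library, females included, give no ages, and do not name the promoter that drives the deletion or say whether a library is 1 mouse or a pool. P-values therefore measure the spread between libraries, which may be technical.

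Brown and beige adipocytes burn fuel to make heat. UCP1 lets protons leak back across the inner mitochondrial membrane, so that respiration runs without making ATP. Noradrenaline released by sympathetic nerves raises cAMP, which induces Ucp1, Dio2 and Ppargc1a, and beige cells with this programme can appear within white depots, more readily in subcutaneous than in epididymal fat. Levels below are CPM (counts scaled by the library total), and each library held between 20484836 and 22209603 counts. The adipocyte label fitted its markers: Adipoq, the fat cell hormone adiponectin, lay at 3631 CPM or more in every male and female adipocyte library and at 156 CPM or less in SVC. Zic1, a marker of classical brown fat, had no count in any of the 23 adipocyte libraries, where 0 allows up to 3 counts each. Ctnnb1, the targeted gene, lay at 308 to 341 CPM in male and 291 to 359 CPM in female control adipocytes and at 308 to 368 and 283 to 367 CPM in the knockouts (SVC 442 to 553 and 353 to 748 CPM). The groups overlapped. Since removal of some exons may leave the total count of a gene as it was, these values do not check the genotype labels.

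The 250 bases before the start of 4 members are shown, of Ucp1, Ppargc1a and Dio2 because cAMP signalling is known to induce them, and of Otop1 because it rose in female knockouts with no overlap. The sequences are from RefSeq on GRCm38.p6, which is not the mm39 build used by the authors, and no coordinate was carried over between builds. Windows of 8 members were searched, and those of Cidea and Elovl3 were not. Capitals mark matches to TGACGTCA (the cAMP response element, CRE), TGACG (its core motif), AGGTCA (a nuclear receptor core motif) or the TATA box letters TATAAA, searched on both strands. The CRE contains its core motif on both strands.
Ucp1, chr8:83290098-83290347, plus strand: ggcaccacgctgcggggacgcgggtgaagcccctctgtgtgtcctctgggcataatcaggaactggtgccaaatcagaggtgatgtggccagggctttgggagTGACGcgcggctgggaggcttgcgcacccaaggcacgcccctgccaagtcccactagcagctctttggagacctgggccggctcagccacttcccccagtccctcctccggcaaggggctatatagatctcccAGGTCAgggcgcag
Ppargc1a, chr5:51567726-51567975, minus strand: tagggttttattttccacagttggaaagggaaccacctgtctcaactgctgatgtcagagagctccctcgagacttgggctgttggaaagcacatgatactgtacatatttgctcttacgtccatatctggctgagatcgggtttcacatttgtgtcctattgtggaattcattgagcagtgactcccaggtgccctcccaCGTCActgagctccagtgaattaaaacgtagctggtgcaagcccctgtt
Dio2, chr12:90739039-90739288, minus strand: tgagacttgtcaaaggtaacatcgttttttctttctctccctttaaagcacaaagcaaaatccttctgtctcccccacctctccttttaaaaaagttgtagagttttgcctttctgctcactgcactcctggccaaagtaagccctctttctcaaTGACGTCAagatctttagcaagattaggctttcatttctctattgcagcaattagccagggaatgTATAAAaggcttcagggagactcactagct
Otop1, chr5:38277154-38277403, plus strand: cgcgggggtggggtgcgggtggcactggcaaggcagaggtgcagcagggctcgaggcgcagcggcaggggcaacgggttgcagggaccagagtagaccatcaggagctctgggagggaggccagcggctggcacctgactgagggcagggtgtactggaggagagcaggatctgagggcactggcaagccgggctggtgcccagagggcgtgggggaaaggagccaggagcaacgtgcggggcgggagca
The window of Dio2 held a full CRE that begins 95 bases before the start and a TATA box that begins 30 bases before it. The window of Ucp1 held a CRE core motif at 147 bases and a nuclear receptor core motif at 14 bases before the start, and that of Ppargc1a a CRE core motif on the other strand at 49 bases. Otop1 held none of these letters, and its window had a GC content of 70%, against 41.6% for Dio2. Of 32851 windows of this length, 1.55% held the CRE, 17.8% its core motif, 14.0% AGGTCA and 12.4% TATAAA. Of the windows of members, none held CTTTGAT, the TCF/LEF letters, which 3.21% of all windows held, or AAGGTCA, an estrogen-related receptor core motif, which 4.08% held. A match is a description of the letters, and no binding was measured.

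Cidea, Otop1, Ppargc1a and Pank1 rose in the adipocytes of female knockouts. The fold changes of all 10 members were positive, with a median log2 of 1.15 against 0.01 over all genes tested. The test was the quasi-likelihood F-test of edgeR, with p-values adjusted by Benjamini-Hochberg over 14227 genes and calls at 0.05. It called 4 of the 10 members higher and none lower, where 0.323% of all genes were called higher. In 3 members, Cidea, Otop1 and Cox8b, every knockout library exceeded every control, which held for 0.295% of all genes. The members were chosen with earlier results of these data known, so these shares are not an independent test of the set.

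Ucp1, the uncoupling protein itself, ranged in female controls from 3.22 to 72.4 CPM with a median of 8.99, and in female knockouts from 27.2 to 144 CPM with a median of 71.5. Control 6, at 72.4 CPM, and control 2, at 28.7 CPM, reached into the knockout range, and the other 4 controls lay at or below 9.22 CPM. The difference of 1.90 on the log2 scale (SE 1.02) was not called (adjusted p = 0.541). It was called with limma-voom (2.56, adjusted p = 0.0496). In an alternative chosen after the values were seen, which left out female control 6 and male control 2, edgeR gave 2.90 (adjusted p = 0.0188).

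Cidea, a lipid droplet protein that promotes droplet fusion and is abundant in brown fat, ranged from 9.89 to 37.1 CPM in female controls (median 17.2) and from 65.1 to 93.3 CPM in female knockouts (median 79.3). The groups did not overlap, and the knockouts stayed within a narrow band. The log2 fold change was 2.01 (SE 0.44, adjusted p = 0.0364). Otop1, which encodes a channel for protons, ranged from 1.01 to 6.02 CPM in controls (median 1.96) and from 8.56 to 15.9 CPM in knockouts (median 10.4). These groups did not overlap either, and the difference was 2.09 (SE 0.46, adjusted p = 0.0409). The 2 highest controls were the same for both genes, control 2 and control 6.

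Ppargc1a encodes PGC-1α, a coactivator that drives mitochondrial biogenesis and thermogenic genes. It ranged from 1.61 to 4.89 CPM in female controls (median 2.44) and from 4.26 to 10.2 CPM in knockouts (median 5.75), where knockout 3 stood highest. Only control 6 lay above the lowest knockout, and the log2 fold change was 1.22 (SE 0.24, adjusted p = 0.0143). Prdm16 encodes a transcriptional coregulator that holds cells in the brown and beige fate. It ranged from 3.61 to 6.43 CPM in controls and from 4.41 to 7.83 CPM in knockouts, largely overlapping, and was not called (log2 0.36, SE 0.18, adjusted p = 0.519).

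Dio2 encodes the deiodinase that converts thyroxine to active thyroid hormone within the cell. It ranged from 0.782 to 4.71 CPM in female controls (median 2.76) and from 2.24 to 14.0 CPM in knockouts (median 4.52). The groups overlapped, knockout 3 stood apart from the other 5, and the difference of 1.07 (SE 0.47) was not called (adjusted p = 0.427). Elovl3, an elongase of very long chain fatty acids, ranged from 0.277 to 2.19 CPM in controls and from 0.893 to 2.18 CPM in knockouts and was not called (log2 0.51, SE 0.79, adjusted p = 0.877). Pank1, a pantothenate kinase that starts coenzyme A synthesis, ranged from 3.37 to 7.55 CPM in controls (median 5.43) and from 7.02 to 13.4 CPM in knockouts (median 9.51). Controls 5 and 6 reached into the knockout range of Pank1, and its difference was 0.92 (SE 0.21, adjusted p = 0.0472).

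**Figure D1:**
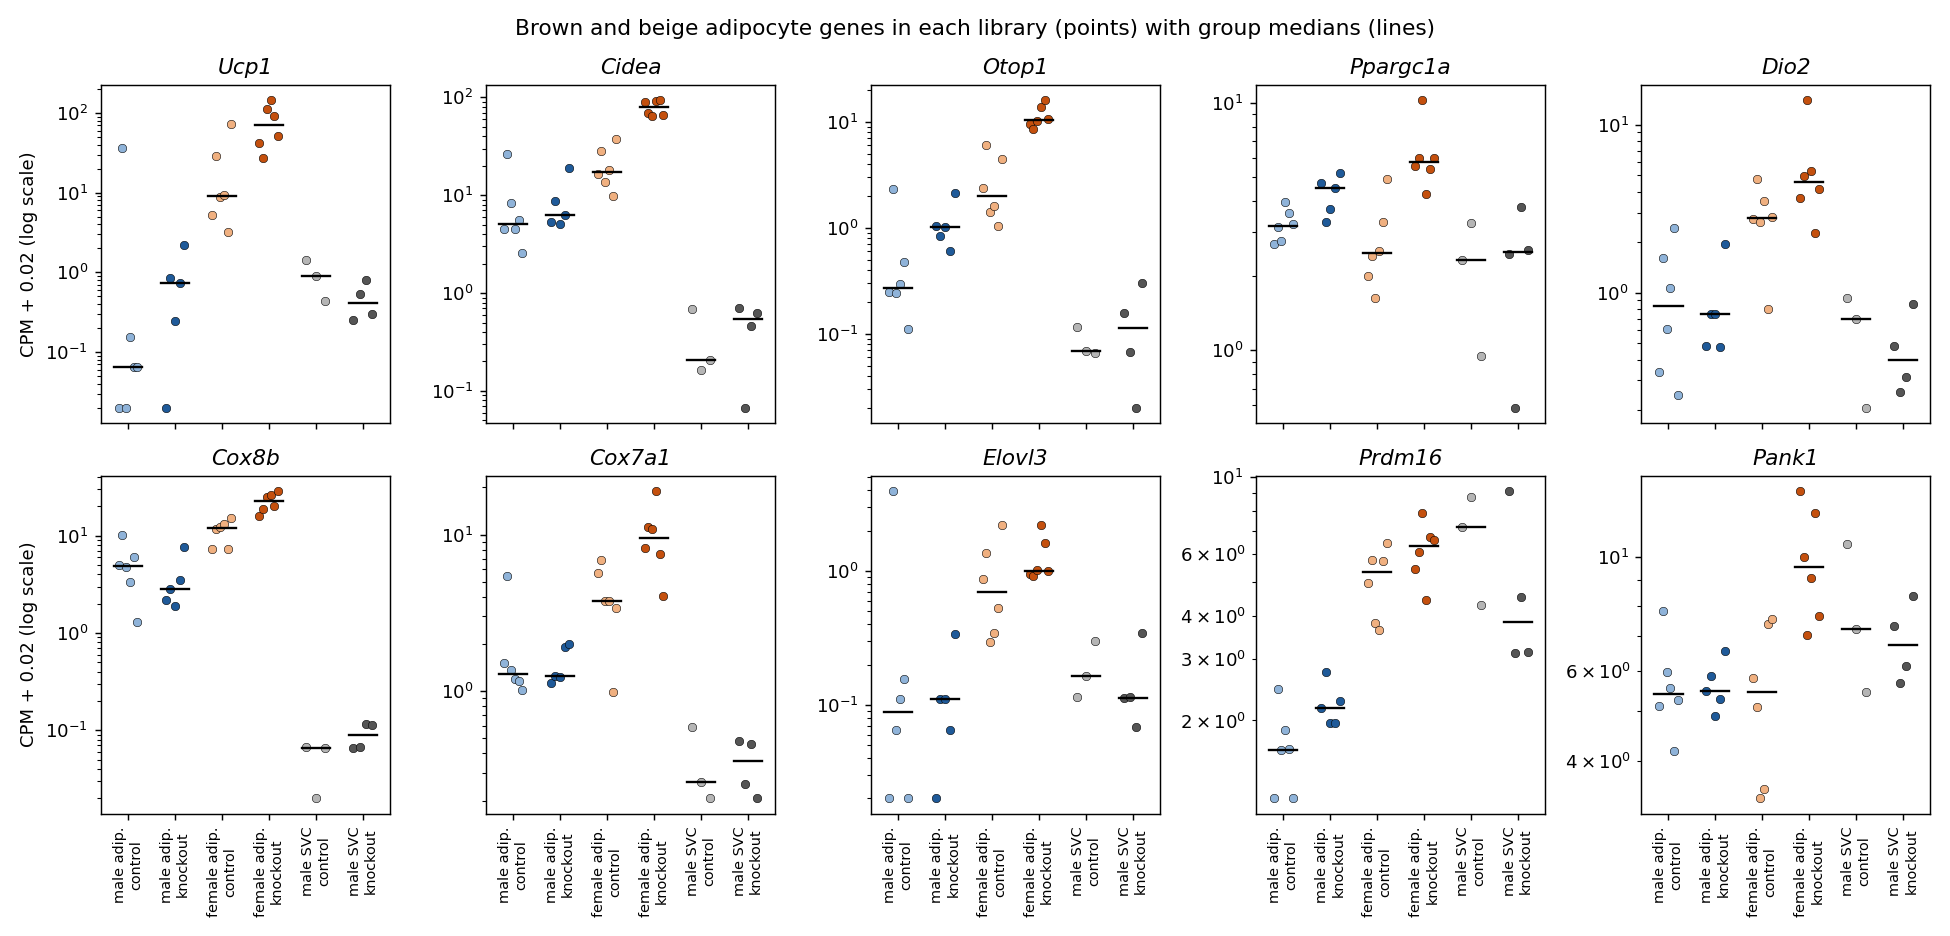
Each panel plots 1 gene in all 30 libraries, as CPM plus 0.02 on a log axis, with 1 point per library and a line at the group median. Female knockouts lie above all female controls for Cidea, Otop1 and Cox8b, and male control 2 stands far above its group for Ucp1 and Elovl3.

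Cox8b and Cox7a1 encode subunits of cytochrome c oxidase in the form used by brown fat, heart and skeletal muscle, beside the widespread Cox8a and Cox7a2. Cox8b ranged from 7.19 to 15.1 CPM in female controls (median 11.9) and from 15.7 to 28.8 CPM in knockouts (median 22.5). Every knockout exceeded every control, yet edgeR did not call the difference (log2 1.07, SE 0.33, adjusted p = 0.192). In a fit of the 2 female groups alone edgeR did call Cox8b (adjusted p = 0.0497). Cox7a1 ranged from 0.966 to 6.81 CPM in controls (median 3.74) and from 4.06 to 19.0 CPM in knockouts (median 9.46) and was not called (log2 1.38, SE 0.39, adjusted p = 0.139), though DESeq2 did call it (adjusted p = 0.0359).

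The ratio of each subunit to its widespread relative was compared within libraries, a measure that library scaling cannot move. The log2 ratio of Cox8b to Cox8a averaged -4.87 ± 0.34 in female knockouts and -5.87 ± 0.50 in female controls (SD, n = 6 each), a rise of 0.99 (exact two-sided permutation p = 0.00649, adjusted p = 0.0260 over 6 ratio tests). That of Cox7a1 to Cox7a2 averaged -4.27 ± 0.55 against -5.52 ± 0.82, a rise of 1.25 (exact permutation p = 0.00866, adjusted p = 0.0260). Both ratios rose in female knockouts. In male adipocytes the differences were -0.51 (exact permutation p = 0.316) and -0.25 (p = 0.686), and in SVC 0.72 (p = 0.257) and -0.45 (p = 0.543), with 35 regroupings possible in SVC. Cox8b held 2 counts in all over the SVC controls and 6 over the SVC knockouts. Its ratio in SVC thus lies near the limit of detection and depends on the 0.5 counts added. The male difference of Cox7a1 turned to 0.0533 without male control 2, and that in SVC to 0.0132 without knockout 4. In females the rise of Cox8b missed the threshold without control 5 or knockout 3, 4 or 5, and that of Cox7a1 without control 4 or 5 or knockout 1, 2, 3, 4 or 5 (exact permutation, adjusted p up to 0.0519 and 0.0584). Muscle carries both subunits. The summed level of 15 skeletal muscle markers lay at 78.2 to 274 CPM in female controls and at 58.7 to 201 CPM in female knockouts (medians 106 and 78.4 CPM). Acta1, the skeletal muscle actin, made up nearly all of it (72.3 to 270.2 and 56.8 to 199.6 CPM), while Ckm and Myh4 reached at most 0.973 and 0.0932 CPM in any of these libraries. The part of muscle RNA in the ratios was not tested.

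**Figure D2:**
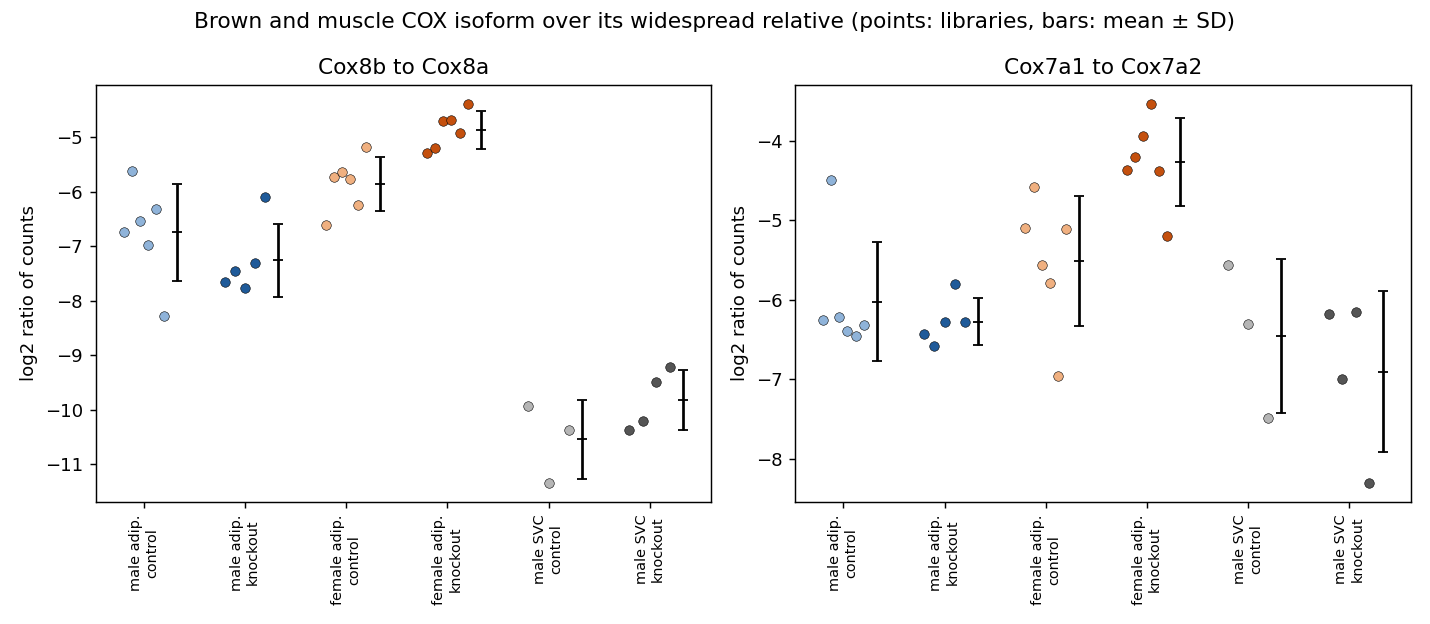
The log2 ratio of counts of Cox8b to Cox8a (left) and of Cox7a1 to Cox7a2 (right) is plotted for each library, with mean and SD bars beside each group. Female knockouts have the highest means, -4.87 and -4.27. Cox8b held 2 counts in all over the SVC controls and 6 over the SVC knockouts.

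The calls in females were near the threshold. The number of all genes called higher, 46, was 29 without knockout 1 and 30 without control 3. With each of the 12 female libraries left out in turn, between 1 and 4 members were called. Ppargc1a stayed called each time. Omitting controls 1, 3, 4 or 5 or knockouts 1, 2, 4 or 5 took Cidea and Otop1 past the threshold (omitting knockout 3 also did so for Otop1), and Pank1 passed it on omitting controls 1, 2, 3 or 4 or knockouts 1, 2 or 5, with adjusted p up to 0.107, 0.121 and 0.142. No member was called with the mean log2 level of the muscle markers as a covariate, where 10 of all 14227 genes were. That mean weighs each marker alike, also those with few counts, so it is not the summed level. It was -1.71 to -1.07 in female controls and -1.99 to -1.68 in female knockouts. A fit with this covariate therefore cannot fully separate it from the genotype. The fold changes in that fit stayed at 1.80 for Cidea, 1.80 for Otop1, 1.06 for Ppargc1a and 0.64 for Pank1. A fit of all 30 libraries called no member either, where 19 of 17514 genes were called.

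Beyond the members, Ntrk3 and genes of the mitochondrial genome rose in female knockouts. Of 18 other brown adipocyte genes tested, 17 had positive fold changes and 1 was called, while 13 had an unadjusted p below 0.05 by edgeR. The called gene was Ntrk3, a neurotrophin receptor (4.24 ± 1.03 CPM in controls, 11.6 ± 4.73 CPM in knockouts, SD, n = 6 each, log2 1.53, adjusted p = 0.00382). Male SVC controls held it at 17.7 ± 7.08 CPM (SD, n = 3), a mean above those of both female adipocyte groups. None was called among 14 transcriptional regulators of brown fat (smallest p Ebf2, log2 0.74, adjusted p = 0.0593), 9 beige selective genes (P2rx5, 0.95, 0.103), 14 genes of the adrenergic and cAMP axis (Adrb1, 0.94, 0.260), 8 secreted factors (Pm20d1, 0.42, 0.423), 6 genes of UCP1 independent heat production (Gatm, -0.63, 0.521) or 8 respiratory chain isoforms and Ucp relatives (Cox6a1, 0.17, 0.562). By edgeR, 6, 2, 2, 2, 0 and 0 genes of these lists, in that order, had an unadjusted p below 0.05, as did 1469 of all 14227 genes. Of 12 protein genes of the mitochondrial genome tested, 7 were called higher. They include mt-Nd5, a subunit of complex I, which had 2448 ± 343 CPM in controls and 4216 ± 606 CPM in knockouts (SD, n = 6 each, log2 0.85, adjusted p = 0.00382). The next by p were mt-Nd1 (0.66, adjusted p = 0.0124) and mt-Cytb (0.74, adjusted p = 0.0154). In male adipocytes none of the 12 was called (smallest p mt-Co1, 0.41, adjusted p = 0.228). The share of counts was taken over all genes whose symbol begins with mt-, which are more than these 12. In females it was 6.87 ± 0.82% in knockouts and 4.37 ± 0.60% in controls (SD, n = 6 each, exact permutation p = 0.00216). With 1 library left out the female difference ranged from 2.25 to 2.69 percentage points. In males the share was 2.28 ± 0.56% in knockouts (n = 5) and 1.83 ± 0.15% in controls (n = 6, exact permutation p = 0.0996, and 0.00952 without knockout 5).

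Markers of other cells moved in the same libraries. All 12 macrophage markers had negative fold changes in female knockouts, C1qc was called lower, and their summed level was 78.4 to 301 CPM in knockouts against 246 to 526 CPM in controls. The 11 mesothelial markers tested had a median log2 of -1.32, with none called (8 at an unadjusted p below 0.05) and summed levels of 24.0 to 58.3 against 25.1 to 109 CPM. White adipocyte genes (15 tested), endothelial (10), preadipocyte (12), nerve and Schwann (5), epithelial (4), muscle (5), subcutaneous (6) and visceral (7) depot markers had none called, with medians between -0.23 and 0.26 and 0, 0, 1, 0, 1, 0, 1 and 2 genes, in that order, at an unadjusted p below 0.05 by edgeR. The part of these cells in the rise of the members was not tested. In bulk libraries such as these, fewer cells of a type and less RNA per cell cannot be told apart.

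In male adipocytes no member was called. Of 14227 genes 0.0703% were called in either direction, 4 members had positive and 6 negative fold changes, and the median log2 was -0.16 against 0.02 over all genes. By edgeR 1 member, Elovl3, had an unadjusted p below 0.05, as did 1861 of all 14227 genes. Neither DESeq2, which called 159 genes, nor limma-voom, which called 11, called a member. The number of all genes called by edgeR, 10, moved with single libraries. It was 332 without knockout 5, 55 without control 2, 6 without knockout 4 and 4 without control 1, with no member among them.

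Ucp1 in male controls was 36.3 CPM in control 2 and at or below 0.136 CPM in the other 5, of which 2 had no count. In male knockouts it was 0, 0.823, 0.226, 0.726 and 2.21 CPM. Thus 4 of 5 knockouts exceeded 5 of 6 controls, while control 2 exceeded them all. With all libraries the log2 fold change was -2.89 (SE 1.42, adjusted p = 0.390), and without control 2 it was 3.95 (adjusted p = 0.279). Elovl3 turned the same way. It was 3.95 CPM in control 2 and at or below 0.136 CPM in the other controls, and 0, 0.0914, 0.0903, 0.0454 and 0.316 CPM in knockouts. Its difference of -2.61 (SE 1.17, adjusted p = 0.343) became 0.90 (adjusted p = 0.709) without control 2. Elovl3 held 12 counts in all over the 5 knockouts, so apart from control 2 these values lay near the limit of detection.

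Cidea in male knockouts was 5.33, 8.73, 5.10, 6.31 and 18.8 CPM, and in male controls 2.53 to 26.1 CPM with a median of 5.03. Control 2 and knockout 5 stood apart in opposite groups, and the log2 fold change was 0.05 (SE 0.47, adjusted p = 0.979). Otop1 was 1.01, 0.823, 0.994, 0.590 and 2.12 CPM in knockouts and 0.0904 to 2.31 CPM in controls (median 0.249). Every male knockout exceeded 5 of the 6 controls in Otop1, and the difference of 0.87 (SE 0.60, adjusted p = 0.555) became 2.06 (adjusted p = 0.0722) without control 2.

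Cox8b was 2.16, 2.83, 1.85, 3.50 and 7.58 CPM in male knockouts and 1.27 to 10.2 CPM in controls (log2 -0.52, SE 0.38, adjusted p = 0.574). Cox7a1 was 1.10, 1.23, 1.22, 1.91 and 1.99 CPM in knockouts and 0.994 to 5.40 CPM in controls (-0.38, SE 0.46, adjusted p = 0.767). Its sign turned to 0.23 without control 2, whose muscle marker sum of 72.2 CPM was also the highest of its group (the next was 53.1 CPM). Of that sum Acta1 alone made 69.0 CPM, and Ckm had no count in any male control. The part of muscle RNA in this value was not tested. Dio2 was 0.459, 0.731, 0.723, 0.454 and 1.94 CPM in knockouts and 0.226 to 2.40 CPM in controls (-0.27, SE 0.58, adjusted p = 0.882).

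Ppargc1a, Prdm16 and Pank1 were not called in male adipocytes. Ppargc1a was 4.73, 3.29, 3.70, 4.49 and 5.19 CPM in male knockouts and 2.67 to 3.94 CPM in controls (log2 0.38, SE 0.25, adjusted p = 0.525). Prdm16 was 2.16, 2.74, 1.94, 1.95 and 2.26 CPM against 1.17 to 2.45 CPM (0.39, SE 0.21, adjusted p = 0.440), and Pank1 was 5.47, 5.85, 4.88, 5.27 and 6.55 CPM against 4.17 to 7.80 CPM (-0.04, SE 0.22, adjusted p = 0.961). All 3 overlapped between the groups.

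**Figure D3:**
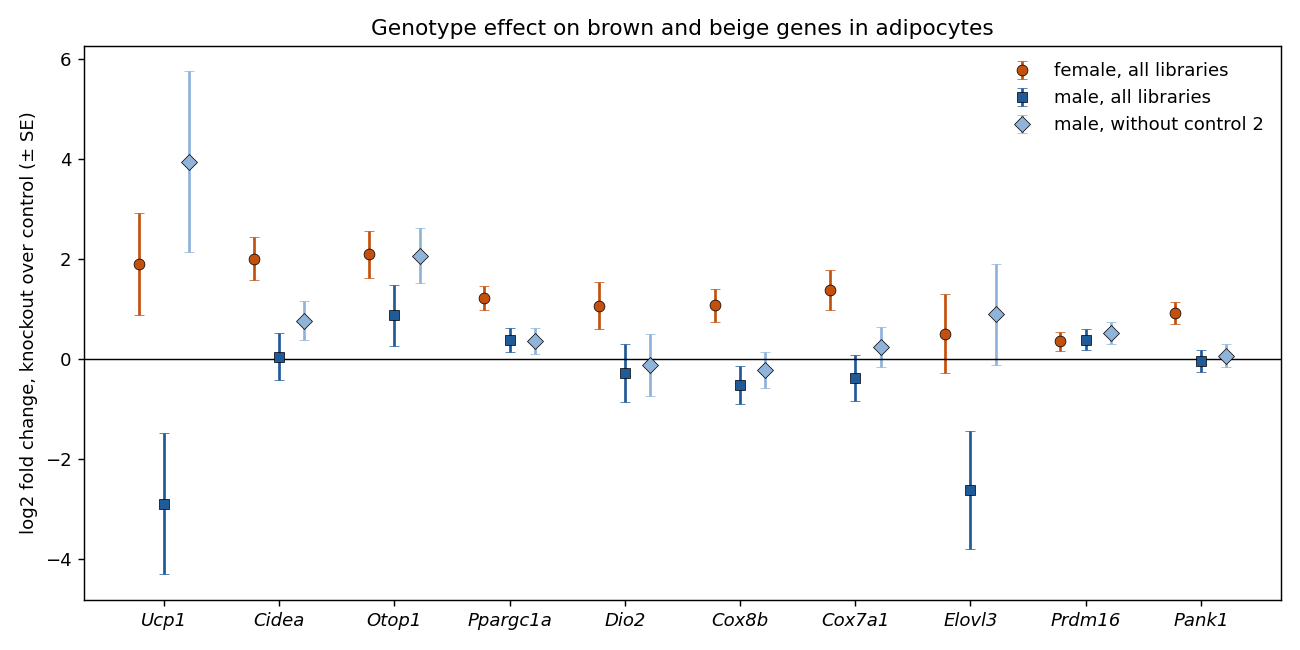
The log2 fold change of knockout over control is plotted for each gene with its SE, in females, in males and in males without control 2. All 10 female values are positive, and the male values of Ucp1 and Elovl3 move from -2.89 and -2.61 to 3.95 and 0.90 when control 2 is left out. Elovl3 held 12 counts in all over the male knockouts.

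The genotype effects of the sexes were compared directly, as the female effect minus the male effect in the fit of 23 adipocyte libraries. No member was called, where 0.0141% of genes were. By edgeR 7 of the 10 had an unadjusted p below 0.05, as did 1262 of all 14227 genes. No member was called by limma-voom, which called 2 genes, or by DESeq2, which called 23. The 2 genes called by edgeR became 22 without male knockout 5, none of them a member, and 0 to 4 without any other single library. The difference was 1.96 for Cidea (SE 0.64, adjusted p = 0.407), 1.59 for Cox8b (SE 0.50, adjusted p = 0.388), 0.96 for Pank1 (SE 0.31, adjusted p = 0.395) and 4.78 for Ucp1 (SE 1.74, adjusted p = 0.433). Without male control 2 that of Ucp1 turned to -2.06 (adjusted p = 0.776) and that of Elovl3 from 3.12 to -0.39. The calls in females are therefore not shown to be particular to females.

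In SVC none of the 6 members with enough counts to be tested was called by genotype. The other 4, Otop1, Cox8b, Cox7a1 and Elovl3, were near the limit of detection. Over all genes edgeR called 0 genes of 16404 (0%), with 429 at an unadjusted p below 0.05, none of them a member. limma-voom also called 0, and DESeq2 called 76. Ucp1 was 1.43, 0.870 and 0.419 CPM in SVC controls and 0.230, 0.518, 0.781 and 0.280 CPM in SVC knockouts (log2 -0.92, SE 0.55, adjusted p = 0.968). The groups overlapped. Prdm16 was 7.15, 8.75 and 4.28 CPM in controls and 9.09, 3.11, 4.49 and 3.13 CPM in knockouts (-0.40, SE 0.44, adjusted p = 0.968). Cidea, Ppargc1a, Dio2 and Pank1 had log2 fold changes from -0.28 to 0.47. A fold change that was not called in these few libraries does not show that the level was the same.

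Prdm16, Otop1, Cox8b and 3 other members were higher in female than in male controls. Of the 10, 6 were called higher and none lower, where 23.7% of all genes were called higher. They were Prdm16 (5.03 ± 1.14 against 1.65 ± 0.476 CPM, log2 1.60, adjusted p = 1.27e-06), Otop1 (log2 2.22, adjusted p = 0.00233), Dio2 (1.45, 0.0261), Cidea (1.27, 0.0233), Cox8b (1.12, 0.0122) and Cox7a1 (1.06, 0.0437). Prdm16 was the 1 member whose female controls all exceeded the male controls, which held for 9.48% of all genes. Ucp1 was 1.87 higher (SE 1.06, adjusted p = 0.158), and without male control 2 the value was 8.69 (adjusted p = 1.38e-05), over 5 controls that held few counts. Ppargc1a (-0.22), Pank1 (-0.05) and Elovl3 (0.41) were not called.

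The calls of Prdm16, Otop1 and Cox8b held in all 12 fits with 1 control left out. Cox7a1 lost its call in 10 of them (adjusted p up to 0.125), that is in all but those without male control 2 or female control 5. Cidea lost it in 6, without male control 1, 4, 5 or 6 or female control 2 or 6 (adjusted p up to 0.0812), and Dio2 in 4, without male control 1, 3 or 6 or female control 2 (adjusted p up to 0.0699). In 12 other settings Cox7a1 lost its call in 6, Dio2 in 3, Cidea in 2 and Cox8b in 1.

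Depot markers differed between the sexes, though not all in 1 direction. Of 6 subcutaneous depot genes tested, 3 were called higher and 2 lower in female controls, and the summed level of all 11 listed was 149 to 163 CPM in female and 174 to 198 CPM in male controls. Of 7 visceral depot genes tested, 4 were called higher and 0 lower, and all 10 listed summed to 209.6 to 255 against 125 to 206 CPM. Hoxc10, a homeobox gene of posterior subcutaneous fat, had a mean of 17.8 ± 2.64 CPM across female controls but of 0.581 ± 0.262 CPM across male controls (SD, n = 6 each). Preadipocyte markers summed to 1011 to 1579 CPM in female and 605 to 813 CPM in male controls, and macrophage markers to 246 to 526 against 490 to 1014 CPM. Sex, depot makeup and these cells cannot be told apart in the levels of the members. With each control left out in turn 3 to 8 members were called, where 5548 to 6325 of all genes were. It was 3 without male control 1, male control 6 or female control 2 and 8 without male control 2.

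Male control adipocytes were set against male control SVC. Of the 9 members tested, 5 were called higher in adipocytes (Cidea, Otop1, Ppargc1a, Cox8b and Cox7a1), where 32.8% of 17251 genes were, and 1 lower (Prdm16), where 44.2% were. The median log2 of all genes here was -0.29. The 3 SVC controls carry the numbers of 3 adipocyte controls in their column names, so the fractions may share animals, which the labels do not state. Cidea was 2.53 to 26.1 CPM in adipocytes and 0.667, 0.145 and 0.186 CPM in SVC (log2 5.22, SE 0.94, adjusted p = 9.51e-05). Cox8b was 1.27 to 10.2 CPM in adipocytes and had 2 counts in all over the 3 SVC controls. Cox7a1 did not overlap either (3.06, SE 0.61, adjusted p = 0.000212). Prdm16 went the other way, with 1.17 to 2.45 CPM in adipocytes and 4.28 to 8.75 CPM in SVC (-1.46, SE 0.33, adjusted p = 0.000718). Of all 17251 genes, 22.1% lay higher in adipocytes without overlap and 52.5% lower, so lack of overlap was common here.

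Ucp1 showed the same dependence on control 2. It was 3.26 higher in adipocytes with all libraries (SE 2.12, adjusted p = 0.169), and 3.58 lower without control 2 (log2 -3.58, adjusted p = 0.00660), since the 3 SVC controls, at 0.419 to 1.43 CPM, all exceeded the other 5 adipocyte controls. Ppargc1a (1.16, adjusted p = 0.0194) lost its call without SVC control 1 or 3 (adjusted p = 0.0540 and 0.0990). Dio2 (1.38, adjusted p = 0.0875) and Pank1 (0.11, adjusted p = 0.623) were not called. With the number of the column names as a block, over libraries whose number occurs in both fractions, Dio2 was called (2.09, adjusted p = 0.0402).

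Ordered by group median, female knockout adipocytes were highest for 9 of the 10 members, and for Prdm16 SVC controls were. Female knockouts overlapped the next group in all but Cidea, Otop1 and Cox8b. Female controls came next for Ucp1, Cidea, Otop1, Dio2, Cox8b, Cox7a1 and Elovl3. Neighbours further down overlapped, except below female controls for Ucp1, below male control adipocytes for Cidea, below male knockout adipocytes for Cox8b and Cox7a1, and below SVC knockouts for Prdm16.

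Between libraries of 1 group the members partly moved together. After each group mean was removed, Elovl3 followed Ucp1 over the 23 adipocyte libraries with a Pearson r of 0.89 and a Spearman rho of 0.75 (permutation within groups, adjusted p = 0.00189 and 0.00369 over 9 relations). Cidea (r = 0.77, rho = 0.61, adjusted p = 0.00580 and 0.0267), Otop1 (0.74, 0.53, 0.0136 and 0.0355) and Cox7a1 (0.62, 0.51, 0.0147 and 0.0355) followed Ucp1 too. Without the 2 libraries farthest from the median of Ucp1, male control 2 and male knockout 1, these r were 0.73, 0.62, 0.63 and 0.42. Without male control 2 alone only Elovl3 passed (r = 0.73, permutation adjusted p = 0.0157), so the relations of Cidea, Otop1 and Cox7a1 rest in part on that library.

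The relations of the other members with Ucp1 did not pass, except the rho of Dio2 (adjusted p = 0.0355). Pearson r was 0.14 for Ppargc1a (rho 0.07, permutation adjusted p = 0.423), 0.27 for Pank1 (rho 0.15, adjusted p = 0.156) and 0.46 for Prdm16 (rho 0.42, adjusted p = 0.0633). Dio2 (r = 0.48, rho = 0.53) and Cox8b (r = 0.58, rho = 0.47) had adjusted p of 0.0648 for r. Within female controls r with Ucp1 was 0.96 for Cidea, 0.84 for Otop1 and 0.73 for Elovl3, and within female knockouts 0.23, 0.67 and 0.74. Values within male controls rested on control 2 and are not given.

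**Figure D4:**
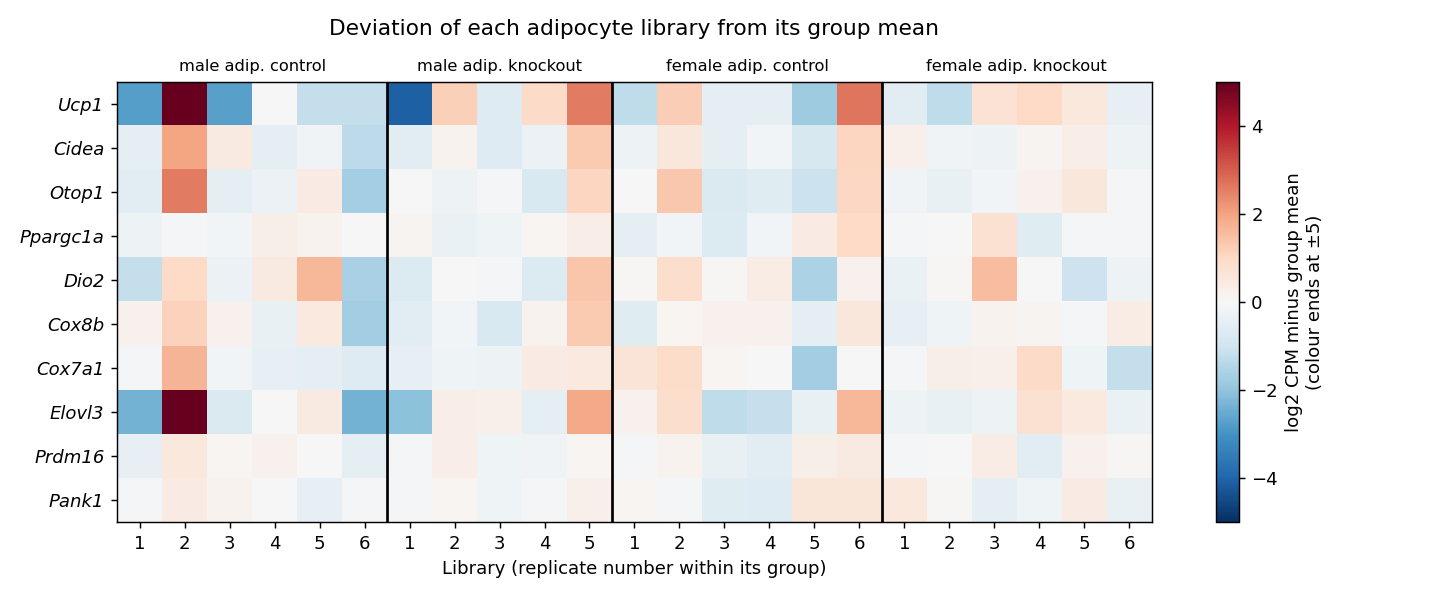
Each cell shows the log2 CPM of a gene in 1 adipocyte library minus its group mean, with colours ending at ±5. Male control 2 and male knockout 5 are high for most rows, and female control 6 is high for Ucp1, Elovl3, Otop1, Cidea and Ppargc1a.

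Of the members, 8 of 10 had their highest male control value in control 2, and 9 of 10 their highest male knockout value in knockout 5. The share of all genes highest in these libraries was not computed, so the counts do not show a trait particular to the members. Control 2 also held the highest summed endothelial markers of the male controls (518 CPM, next 492 CPM), and knockout 5 the highest endothelial (677 CPM, next 445 CPM) and nerve and Schwann markers (46.9 CPM, next 40.6 CPM) of the male knockouts. The part of these markers in the members' levels was not tested.

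The genes whose group-centred pattern was most like that of Ucp1 over 23 libraries, among 11321 with a mean of at least 1 CPM, were Acat1 (r = 0.74), Fabp3 (0.68), Impa1 (0.67), Pdcd2 (0.67) and Nol10 (0.66). Those most like the mean of the 10 members were Aspg (0.72), Acat1 (0.71), Lzic (0.71), Suclg1 (0.70) and Acot11 (0.68). Fabp3, Aspg and Acot11 are among the brown adipocyte genes listed here. In male controls their means were higher in SVC (1.97, 2.63 and 6.47 CPM, in that order) than in adipocytes (0.763, 0.272 and 1.48 CPM). Without male control 2 Nol10 remained among the 5 for Ucp1 and Suclg1 among the 5 for the mean. The libraries share depth and group means, and these values are descriptions.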

How the data were processed

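The authors deposited raw read counts per gene and log2 values, which are regularised logarithms (rlog) per the file headers. The submitters' processing notes list build mm39, STAR 2.7.11a, FastQC 0.12.1 and DESeq2. The sources used here do not name the counting program or its strand setting. The counts were fitted with edgeR 4.0.16 in R 4.3.3 (TMM scaling, filterByExpr with a minimum count of 10, robust dispersions). Adipocyte libraries were fitted together as 4 groups, SVC genotype alone, and the fractions over the male libraries. CPM in the text are scaled by the library total. SE are the fold change over the root of F. rlog values served as a check of direction, which was the same for 10 of 10 members in females, 9 of 10 in males and 6 of 6 in SVC. Genes carried a symbol in 33501 of 35120 cases.

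The members and 18 further gene lists were chosen with earlier results of these data known. All members are named, and from each list the called genes of smallest p (up to 3) or the gene of smallest p; Hoxc10, Zic1 and Adipoq were added as markers. No 2 libraries of a group agreed within counting noise (lowest chi-square per degree of freedom 11.9). Among the alternatives were leaving out each library, DESeq2 1.42.0, limma-voom (limma 3.58.1), marker covariates, replicate blocks, other scalings, other filters and other sets of libraries. The procedure was tested on simulated data. Ratios added 0.5 counts. Promoter windows came from RefSeq.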

Additional observations from a re-analysis of the deposited data

Results flagged for a closer look

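Of 50 sets of libraries (a gene in a group of 4 to 6), 14 held a library that stood apart from the rest of its group by Dixon's criterion on CPM. All 14 were the highest of their group. Chance gives about 5% only where values follow a normal distribution, which was not checked for CPM. In male controls, control 2 stood above the others for Ucp1 (36.3 CPM), Cidea (26.1 CPM), Otop1 (2.31 CPM), Cox7a1 (5.40 CPM) and Elovl3 (3.95 CPM). In male knockouts, knockout 5 did so for Cidea (18.8 CPM), Otop1 (2.12 CPM), Dio2 (1.94 CPM), Cox8b (7.58 CPM) and Elovl3 (0.316 CPM). In female knockouts, knockout 3 was apart for Ppargc1a (10.2 CPM) and Dio2 (14.0 CPM), and in female controls control 6 for Ucp1 (72.4 CPM). SVC knockout 4 was apart for Elovl3 (0.326 CPM). The genes share their libraries, so these flags are not independent.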

How the results depend on the processing

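Of 1334 refitted fold changes of single members, 1198 kept direction and side of the threshold, 77 lost and 12 gained a call and 47 changed sign; the cause of these changes was not tested. In females 2 members were called with no low-count filter, where 47 of 28560 genes were. With the muscle covariate, which itself differed between the female genotypes, it was 0, where 10 of 14227 genes were. With all 30 libraries it was 0, where 19 of 17514 were. With 1 library left out 1 to 4 members were called, where 32 to 89 of all genes were. Between female and male controls 3 members were called with no filter, where 5747 of 28560 genes were. It was 3 with the depot covariate, where 5407 of 14227 genes were, and 3 with the muscle covariate, where 4172 were. With 1 library left out it was 3 to 8, where 5548 to 6325 of all genes were called. Between adipocytes and SVC 3 were called with the depot covariate, where 3893 of 17251 genes were. That covariate was -0.046 to 0.667 in male control adipocytes and -2.20 to -1.36 in SVC controls. A fit with it therefore cannot separate it from the fraction. With 1 library left out, the female ratios ranged from 0.845 to 1.13 (Cox8b) and from 0.958 to 1.43 (Cox7a1), that of Cox7a1 from -0.371 to 0.0533 in males and from -0.970 to 0.0132 in SVC, and the difference in mitochondrial share in males from 0.297 to 0.642 percentage points.

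Log2 fold changes changed sign in these cases. With 1 library left out the male effect ranged from -3.73 to 3.95 for Ucp1, -0.44 to 0.77 for Cidea, -0.82 to 0.18 for Dio2, -0.51 to 0.23 for Cox7a1, -3.49 to 0.90 for Elovl3 and -0.11 to 0.0647 for Pank1. The SVC effect ranged from -0.17 to 0.63 for Ppargc1a, -0.68 to 0.10 for Dio2 and -0.25 to 0.10 for Pank1. Between controls of the sexes the range was -0.11 to 3.90 for Elovl3 and -0.22 to 0.0295 for Pank1, and between fractions -3.58 to 3.66 for Ucp1. The difference between the sexes' effects ranged from -2.06 to 5.79 for Ucp1, -0.39 to 4.01 for Elovl3 and -0.17 to 0.0747 for Prdm16. Without male control 2 and female control 6 together, chosen after seeing the data, the male effect was 3.94 for Ucp1, 0.23 for Cox7a1, 0.89 for Elovl3 and 0.0555 for Pank1, and the difference between the sexes' effects was -1.04 for Ucp1. With limma-voom Ucp1 was 1.21 in males and -1.87 between fractions. With the muscle covariate the values were -0.13 for Cidea in males, -0.0165 for Ppargc1a and 0.20 for Prdm16 in SVC, 0.18 for Pank1 between controls of the sexes and -0.0068 for Dio2 between fractions. With the depot covariate they were -1.51 for Ppargc1a in SVC, -0.0028 for Elovl3 between controls of the sexes and -1.32 for Ppargc1a between fractions. The last value is limited by the tie of that covariate to the fraction. Pank1 between fractions was -0.0081 with upper-quartile scaling and -0.47 with library totals.

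Whether replicate numbers pair knockout with control libraries was not settled. The correlation of same-numbered deviations ranged from -0.07 to 0.53 in females, -0.21 to 0.15 in male adipocytes and -0.38 to 0.51 in SVC. Deviations of libraries with different numbers were not compared, so these values cannot show or exclude pairing. With the replicate block 4 members were called in females, where 65 of 14227 genes were, and 0 in males, where 10 were. Ppargc1a in SVC was then -0.0315 and Ucp1 between fractions -0.15. The number in the column names recurs in 3 control and 3 knockout pairs of male adipocyte and SVC libraries, whose deviations correlated at -0.01, 0.22 and 0.25 in controls and 0.20, 0.26 and 0.31 in knockouts. With it as a block 7 members were called between fractions, Dio2 being added to the 6, where 11657 of 17022 genes were called.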
